A study of Homo sapiens with 6 samples.

Results

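Potassium channel genes were examined in 12Z cells, an immortalized epithelial cell line derived from endometriosis, after knockdown of the long noncoding RNA LINC01133. The genes were all protein-coding genes with a symbol starting with KCN, which excludes antisense RNAs and pseudogenes, and 96 of the 60660 genes in the count files met this rule. They comprise 40 voltage-gated, 16 inward rectifier and 15 two-pore channel genes. A further 8 were classed with the calcium- and sodium-activated channels and 17 with the auxiliary subunits. RNA-sequencing compared 3 libraries of control 12Z cells, transfected with a non-targeting siRNA, with 3 libraries of knockdown 12Z cells, transfected with siRNA LINC01133a at 10 nM. Both groups were 12Z cells transfected with Lipofectamine RNAiMAX and lysed 72 h after transfection, so they share the line, the reagent and the time. The groups represent 1 cell line and 1 targeting siRNA. In bulk RNA, fewer cells that express a gene and less RNA of it per cell cannot be told apart.

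Potassium channels let potassium ions leave or enter the cell along their gradient and thereby set the membrane potential, cell volume and the driving force for calcium entry. Voltage-gated channels open on depolarization, and inward rectifiers pass potassium more readily into the cell than out of it. Two-pore channels carry background leak, and calcium-activated channels link the membrane potential to intracellular calcium. Auxiliary subunits do not form a pore. They bind pore-forming subunits and alter their gating, trafficking or surface amount. In epithelial cells, potassium channels support volume regulation and the transport of fluid and ions.

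The libraries held 27742562 to 37551194 counts on genes, and 15155 genes passed the filter on low counts and were tested. LINC01133 itself was at 823 ± 12.8 normalized counts in control and 133 ± 4.68 in knockdown cells (SD, n = 3 each), or 16.2% of the control level. The counts of replicates differed by more than sampling noise, with a chi-square per gene of 2.32 to 4.04 for most pairs of a group and of 13.2 and 14.5 for the pairs that include control replicate 2. All 6 epithelial markers examined were present, but EPCAM was low, at 13.6 ± 4.33 normalized counts in control cells (SD, n = 3), and the stromal collagen genes COL1A1 and COL3A1 were also abundant. Of the 6 epithelial markers, 4 (KRT7, KRT8, KRT19 and CDH1) were lower in knockdown cells at the cutoffs used below. The summed level of the 6 was 6694 to 7128 TPM (a level per exon length, scaled to the same total in every library) in control and 4311 to 4432 TPM in knockdown libraries. The part of this shift in the results below was not tested. All 5 stromal markers were present, with sums of 4286 to 4775 TPM in control and 4369 to 4508 TPM in knockdown libraries, and none was DE. The sums of the endothelial, immune, neuronal and muscle markers (3 each) lay between 0.112 and 4.62 TPM, with CD3E and MYH7 listed at 0. Of these, CDH5 of endothelial cells was higher in knockdown cells, at 174 against 63.4 normalized counts. The other endothelial markers did not share this. VWF was not DE, at 25.4 against 20.6 normalized counts. PECAM1 was not tested, with 3, 3 and 1 counts in control and 1, 0 and 0 in knockdown libraries.

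Of the 96 potassium channel genes, 34 (35.4%) passed the filter and 62 did not. The auxiliary subunits and the calcium- and sodium-activated channels were represented most fully, with 9 of 17 and 4 of 8 genes tested. The voltage-gated class had 13 of 40, the two-pore class 5 of 15 and the inward rectifiers 3 of 16. Among the 62 genes left out, 29 were listed at 0 in all 6 libraries and 51 had no more than 3 counts in any library. The highest single value among them was 13 counts, for KCNH2, the channel known as hERG. KCNQ1 and KCNJ2, widely studied channels of heart muscle, reached at most 4 and 1 counts. These genes entered no test with the filter in place. Without it, 1 of them was DE, KCNK7 (two-pore), which had 9, 4 and 8 counts in control and 1, 1 and 4 in knockdown libraries.

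Levels were compared between genes as TPM, which divides the counts by the summed exon length of each gene. KCNAB1, the gene of a cytoplasmic beta subunit of voltage-gated channels, had the highest level in control cells, at 40.1 ± 5.70 TPM (SD, n = 3). KCNMA1, which encodes the large-conductance calcium-activated (BK) channel, followed at 18.2 ± 0.854 TPM, and KCNK6, a two-pore channel, at 14.6 ± 0.801 TPM (SD, n = 3 each). KCNQ5, a voltage-gated channel, and KCNJ12, a strong inward rectifier, were next and did not differ beyond their spread, at 10.4 ± 1.66 and 10.2 ± 0.911 TPM (SD, n = 3 each). KCNAB2, a further beta subunit (9.02 ± 0.309 TPM), and KCNK5, an acid-sensitive two-pore channel (8.81 ± 1.36 TPM), also did not differ in TPM beyond their spread (SD, n = 3 each). Their exon lengths were 17212 and 3783 bases, and their normalized counts in control cells 1162 and 249. The order by TPM thus depends on the exon lengths used. Behind KCNQ5, the highest voltage-gated genes were KCNC4 and KCND1, at 6.73 and 5.33 TPM, and the highest two-pore gene behind KCNK6 and KCNK5 was KCNK1, at 6.92 TPM. Among the inward rectifiers, KCNJ14 and KCNJ4 were far below KCNJ12, at 2.34 and 0.761 TPM. The lowest tested gene was KCNA4, at 0.300 ± 0.0719 TPM (SD, n = 3). The exon length used for KCNMA1 was 39437 bases, the longest of the tested members, which lowers its TPM, while its counts were the highest of the family.

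**Figure D1:**
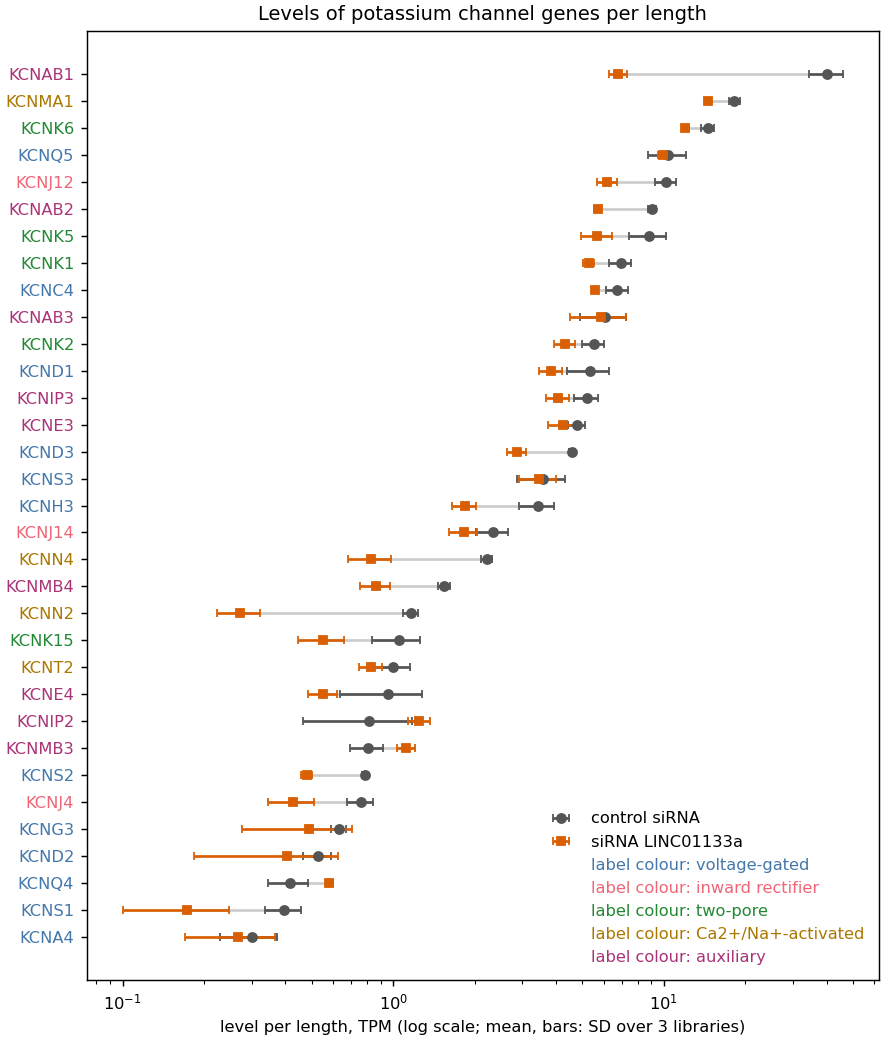
Level per length (TPM, log axis) of 33 of the 34 potassium channel genes that passed the filter, as mean and SD over 3 control (circles) and 3 knockdown (squares) libraries, with gene names coloured by class. KCNAB1 had the highest level in control cells, at 40.1 TPM, and 6.77 TPM in knockdown cells, where KCNMA1 was highest at 14.6 TPM.

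The comparison asked which genes differ between control cells and cells transfected with siRNA LINC01133a. A gene was called differentially expressed (DE) where it changed by more than 1.5-fold and its adjusted p was under 0.05, from the edgeR quasi-likelihood model with p-values adjusted after Benjamini and Hochberg over the 15155 genes. Log2 fold changes (log2FC) are knockdown against control, given with their standard error (SE). At these cutoffs 13 of the 34 tested potassium channel genes (38.2%) fell in knockdown cells, where 6.43% of all tested genes did. None rose, where 5.30% of all tested genes did. Without the fold change cutoff, 20 of the 34 genes were lower and 1 was higher at an adjusted p under 0.05, against 25.0% lower and 23.3% higher of all tested genes. Behind the count of 0, edgeR gave 3 genes that were higher at an unadjusted p under 0.05, among them KCNMB3 and KCNIP2, and DESeq2 gave 0 at either p.

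The log2FC was below 0 for 30 of the 34 tested members (28 with library size alone as scaling), with a median of -0.39, against 49.5% and a median of 0.0032 for all tested genes. Counts did not overlap between groups for 21 members that were lower and 3 that were higher, against 29.0% and 28.3% of all tested genes. The filter admits a gene that is high in a single group. KCNG3, KCNS1, KCNJ4 and KCNK15 exceeded its minimum in all control but not all knockdown libraries, and none did so in knockdown libraries alone. With at least 10 counts required in every library, 11 of 29 genes were DE and lower, against 6.10% of all genes tested under that filter. KCNS1 and KCNK15 were not among the 29. Many members had low counts. Of 18 members with a mean normalized count under 100, 8 fell, against 9.05% of all tested genes at that level. Of 13 members between 100 and 1000 counts, 4 fell, against 7.48%, and 1 of 3 members above 1000 did, against 4.03%.

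**Figure D2:**
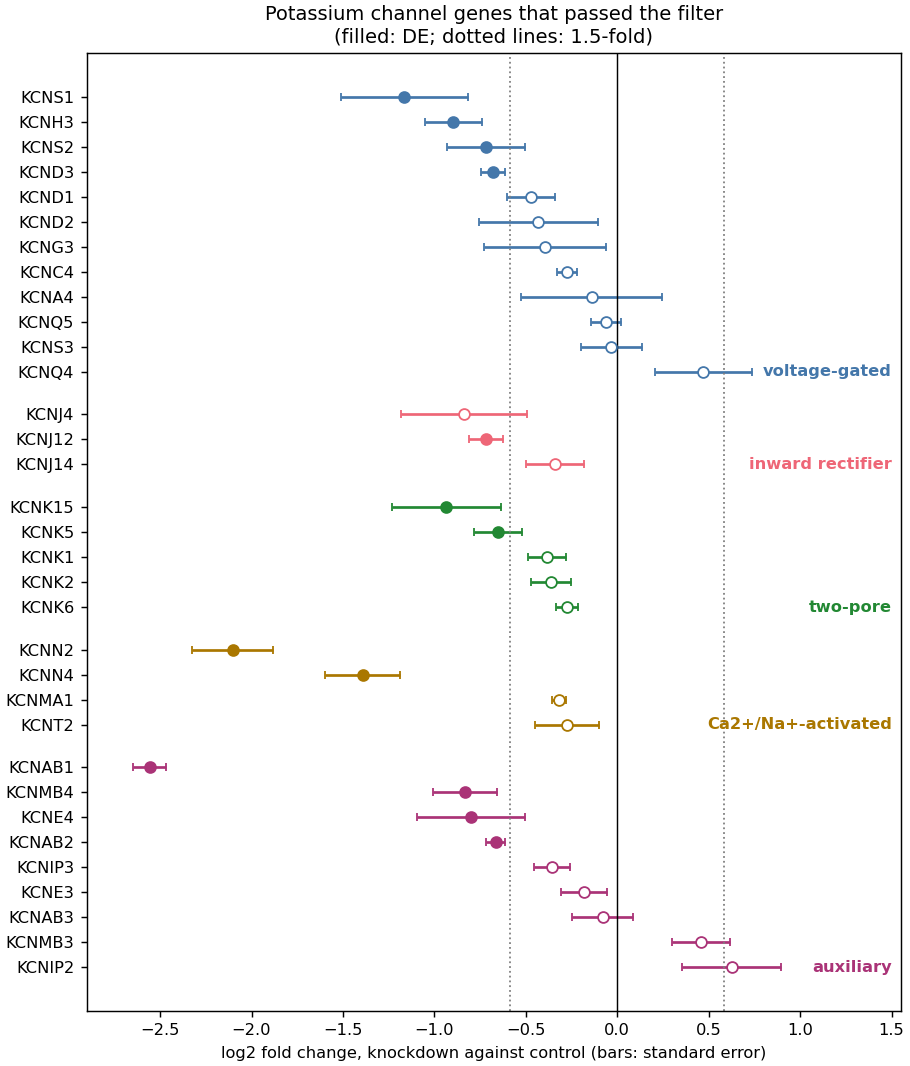
Log2 fold change (knockdown against control, x axis, bars give the standard error) of 33 of the 34 tested potassium channel genes, by class. Filled points were DE and dotted lines mark a fold change of 1.5. The values ran from -2.56 for KCNAB1 to 0.63 for KCNIP2, and all 13 filled points lie on the left.

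Among the auxiliary subunits, the beta subunits of voltage-gated channels carried the largest change. These proteins resemble aldo-keto reductases, bind NADPH and attach to the cytoplasmic side of Kv1 channels. KCNAB1 (ENSG00000169282.18, chromosome 3 from 156037701 to 156539138 of GRCh38, plus strand) encodes the subunit known to speed inactivation. It had 2010, 2312 and 1804 normalized counts in control and 353, 369 and 313 in knockdown libraries. Every knockdown library lay far below every control library, and the mean was 16.9% of the control level. The log2FC was -2.56 ± 0.089 (SE) at an adjusted p of 2.7e-10, the lowest of the family and the 8th lowest of the 15155 genes tested. With each library left out in turn it stayed between -2.64 and -2.46.

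KCNAB2 (chromosome 1 from 5990927 to 6101193), whose product mainly aids surface delivery of Kv1 channels, fell less. Its normalized counts were 1221, 1105 and 1160 in control and 750, 744 and 702 in knockdown libraries, without overlap. The log2FC was -0.67 ± 0.054 (SE) at an adjusted p of 4.5e-07. KCNAB3 had 211 ± 44.8 and 203 ± 45.8 normalized counts (SD, n = 3 each), a difference within the spread of either group. Its log2FC was -0.081 (adjusted p = 0.72), and the sign changed without control replicate 1 (0.062) or knockdown replicate 2 (0.056).

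The make-up of the beta subunit transcripts also differed between the groups. KCNAB1 made up 70.2%, 77.4% and 69.7% of the summed TPM of the 3 genes in control libraries and 37.8%, 40.8% and 32.5% in knockdown libraries. The summed level was 50.3 to 59.8 TPM in control and 17.7 to 19.1 TPM in knockdown libraries. KCNAB1 was the dominant beta subunit transcript in control cells. In knockdown cells KCNAB1, KCNAB2 and KCNAB3 were close in TPM, at 6.77 ± 0.523, 5.69 ± 0.151 and 5.87 ± 1.37 (SD, n = 3 each). These TPM values and shares depend on the exon lengths used, 6822, 17212 and 4633 bases. By normalized counts the knockdown means were 345, 732 and 203, so that KCNAB2 was highest there. In control cells they were 2042, 1162 and 211. Of the Kv1 genes, whose products are their usual partners, KCNA4 alone passed the filter. It had 12, 6 and 10 counts in control and 14, 8 and 5 in knockdown libraries, and the groups overlapped.

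**Figure D3:**
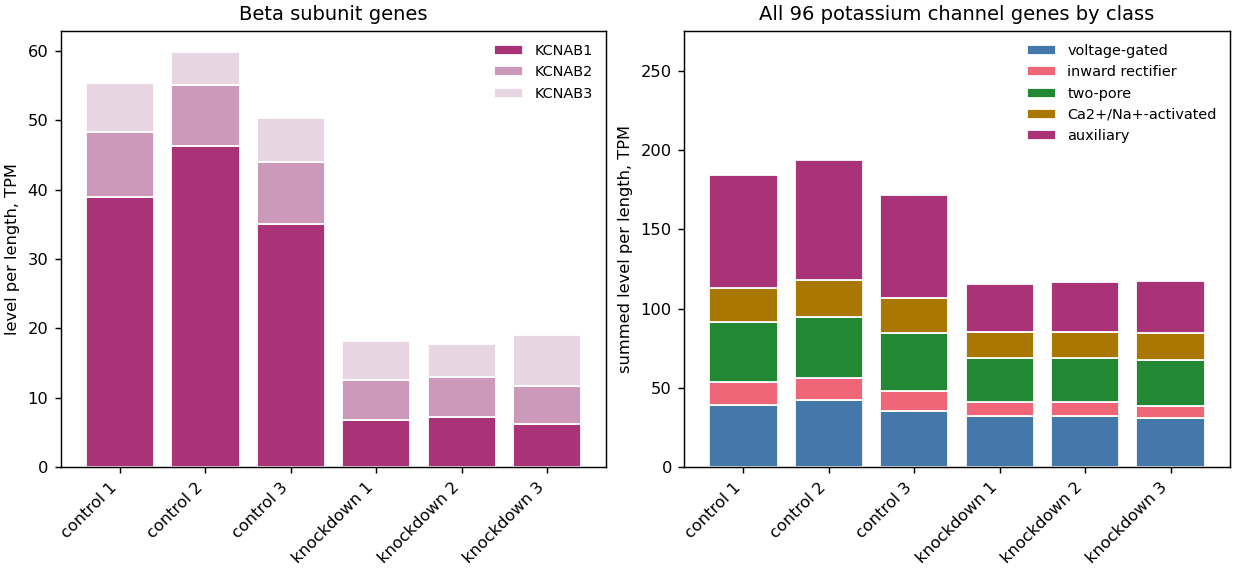
Level per length (TPM) in each of the 6 libraries, stacked for the 3 beta subunit genes (left) and for all 96 potassium channel genes by class (right). The beta subunit sum was 50.3 to 59.8 TPM in control and 17.7 to 19.1 TPM in knockdown libraries, with most of the difference in KCNAB1.

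Of the other auxiliary subunits, KCNMB4 and KCNE4 fell. KCNMB4, the beta subunit of the BK channel best known from brain, had 54.0, 57.4 and 57.0 normalized counts in control and 28.8, 35.9 and 29.5 in knockdown libraries, and the groups were well apart. This gave a log2FC of -0.83 ± 0.18 (SE) at an adjusted p of 0.0016. KCNE4, a single-span subunit that inhibits several voltage-gated channels, had 36, 27.0 and 17.6 normalized counts in control and 15.3, 17.5 and 13.6 in knockdown libraries, so the groups met without overlapping. Its log2FC of -0.80 (adjusted p = 0.039) was DE with all libraries and without control replicate 3, but not without any of the others. The value was -0.51 without control replicate 1 and -0.80 without control replicate 2, and -0.78, -0.89 and -0.73 without knockdown replicates 1, 2 and 3, with adjusted p values of 0.053 to 0.21 (edgeR). DESeq2 gave an adjusted p of 0.13.

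KCNIP3, a calcium-binding subunit of Kv4 channels, was lower by less than the cutoff (log2FC -0.36, adjusted p = 0.0095), and KCNE3, a single-span subunit of KCNQ channels, had a log2FC of -0.18 (adjusted p = 0.25). Higher values were measured for KCNMB3 and KCNIP2. KCNMB3, a further BK subunit, had a log2FC of 0.46 (adjusted p = 0.029), which is under the fold change cutoff. It overlaps PIK3CA on the opposite strand, a gene with 2367 counts in control and 1358 in knockdown cells on average. On its own strand it overlaps the pseudogene LRRFIP1P1, with 50.7 and 56.7 counts on average, which a count by strand does not separate, so its value is uncertain. KCNIP2, another Kv4 subunit, had 17, 30.4 and 14.5 normalized counts in control and 28.8, 32.0 and 34.0 in knockdown libraries, which overlap through control replicate 2. Its log2FC was 0.63 (adjusted p = 0.073), and without control replicate 2 it was 0.98 (adjusted p = 0.0083), which is DE.

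Among the calcium- and sodium-activated channels, KCNN2 and KCNN4 fell, which is 2 of 4 tested genes against 6.43% of all tested genes, and the BK gene was lower by less than the cutoff. The small-conductance genes KCNN1 and KCNN3 had at most 1 and 3 counts in a library and were not tested. KCNN2 (chromosome 5 from 114055926 to 114496500), which encodes the SK2 channel gated by calmodulin, had 55.9, 54.1 and 49.7 normalized counts in control and 10.2, 14.6 and 12.5 in knockdown libraries. The groups were far apart, and the knockdown mean was 23.3% of the control level. The difference, a log2FC of -2.10 ± 0.22 (SE), had an adjusted p of 5.1e-06. KCNN4 (chromosome 19 from 43766533 to 43780976) encodes the intermediate-conductance channel of epithelial cells and lymphocytes. It had 50.2, 50.7 and 54.9 normalized counts in control and 23.7, 17.5 and 17 in knockdown libraries, again far apart. On the log2 scale the difference was -1.39 ± 0.20 (SE) at an adjusted p of 9.3e-05. Both calls held with every library left out in turn, between -2.24 and -1.96 for KCNN2 and between -1.58 and -1.31 for KCNN4.

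KCNMA1 had by far the most counts of the family, 5257, 5540 and 5310 normalized counts in control and 4345, 4264 and 4309 in knockdown libraries. The groups did not overlap, but the log2FC of -0.32 ± 0.036 (SE, adjusted p = 1.1e-05) was under the cutoff. KCNMA1 took 83.9% to 84.7% of the summed TPM of KCNMA1 and the 4 KCNN genes in control libraries and 92.2% to 93.3% in knockdown libraries. KCNT2, a sodium-activated channel, had 53.6 ± 7.26 and 44.3 ± 3.89 normalized counts (SD, n = 3 each), and the difference did not pass (adjusted p = 0.21).

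Of the 13 tested voltage-gated genes, 4 fell, against 6.43% of all tested genes. KCND3 (chromosome 1 from 111770662 to 111989668) encodes the Kv4.3 channel of transient outward current. Its normalized counts were 655, 650 and 688 in control and 406, 392 and 449 in knockdown libraries, well separated, with a log2FC of -0.68 ± 0.067 (SE) at an adjusted p of 2.7e-06. KCNH3 (chromosome 12 from 49539030 to 49558337), an ether-a-go-go-type channel, had 134, 96.9 and 115 normalized counts in control and 67.8, 63.1 and 54.5 in knockdown libraries. The groups did not overlap, and the log2FC was -0.90 ± 0.16 (SE) at an adjusted p of 3.6e-04. KCNS1 and KCNS2, silent subunits that modify Kv2 channels, had few counts. KCNS2 had 32.2, 30.4 and 33.2 normalized counts in control and 20.3, 18.4 and 19.3 in knockdown libraries, without overlap. It was DE with edgeR (log2FC -0.72, adjusted p = 0.013) but not with DESeq2 (adjusted p = 0.11).

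KCNS1 (chromosome 20 from 45091214 to 45101127) had 18.0, 13.5 and 18.7 normalized counts in control and 6.78, 10.7 and 4.54 in knockdown libraries. The groups did not overlap, and the log2FC was -1.17 (adjusted p = 0.014). It was no longer DE without knockdown replicate 1 (-1.09, adjusted p = 0.060) or knockdown replicate 3 (-0.95, adjusted p = 0.054), nor with DESeq2 (adjusted p = 0.085). The third KCNS gene tested, KCNS3, had 83.7 ± 15.2 and 80.6 ± 13.3 normalized counts (SD, n = 3 each) and did not pass (adjusted p = 0.89).

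The voltage-gated genes with the highest TPM in control cells, KCNQ5, KCNC4 and KCND1, changed less than the cutoff. This order depends on the exon lengths used. By normalized counts in control cells KCND3, which was DE, lay above KCND1, at 664 against 242. Their exon lengths were 19393 and 6082 bases. KCNQ5, a channel of the M-current, had 877 ± 124 normalized counts in control and 837 ± 39.6 in knockdown cells (SD, n = 3 each), and the groups overlapped. Its log2FC was -0.062 (adjusted p = 0.56) and turned to 0.047 without control replicate 2. KCNC4, a channel of fast repolarization, was lower by less than the cutoff (log2FC -0.27, adjusted p = 0.0011). KCND1, the Kv4.1 gene, had a log2FC of -0.47 (adjusted p = 0.0091) and overlapped between groups. It was DE without control replicate 3 (-0.61, adjusted p = 9.0e-04).

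In the two-pore class, all 5 tested genes were lower at an adjusted p under 0.05 and without overlap between groups, against 25.0% and 29.0% of all tested genes. Past the fold change cutoff 2 of them fell, against 6.43%. KCNK5 (chromosome 6 from 39188971 to 39229475), known from fluid-secreting epithelia, had 297, 224 and 227 normalized counts in control and 156, 143 and 182 in knockdown libraries. The log2FC was -0.65 ± 0.13 (SE) at an adjusted p of 9.9e-04. It stayed lower but under the cutoff without control replicate 1 (-0.50) or knockdown replicate 2 (-0.58). KCNK15 (chromosome 20 from 44745865 to 44752313), of the TASK subfamily, had 24.6, 16.9 and 17.6 normalized counts in control and 9.32, 12.6 and 9.08 in knockdown libraries. Its log2FC of -0.93 (adjusted p = 0.020) was not DE without control replicate 1 (-0.73, adjusted p = 0.10), knockdown replicate 1 (-0.85, adjusted p = 0.082) or knockdown replicate 3 (-0.86, adjusted p = 0.060), nor with DESeq2 (adjusted p = 0.13).

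The other two-pore genes differed by less than the cutoff. The weakly rectifying channel KCNK1 had a log2FC of -0.38 (adjusted p = 0.0088), the mechanosensitive channel KCNK2 one of -0.36 (adjusted p = 0.015), and KCNK6, the most abundant of the class, one of -0.28 (adjusted p = 0.0023). Among the inward rectifiers, KCNJ12 (chromosome 17 from 21376357 to 21419870) fell from 458, 407 and 381 normalized counts in control to 248, 277 and 231 in knockdown libraries, without overlap. This gave a log2FC of -0.72 ± 0.093 (SE) at an adjusted p of 3.0e-05. KCNJ12 has a near-identical copy, KCNJ18, which was listed at 0 in all libraries. Since reads that map to several places were left out, the count of KCNJ12 may be incomplete. KCNJ4 and KCNJ14 also had lower counts without overlap, but did not pass (log2FC values -0.84 and -0.34, adjusted p = 0.064 and 0.092).

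**Figure D4:**
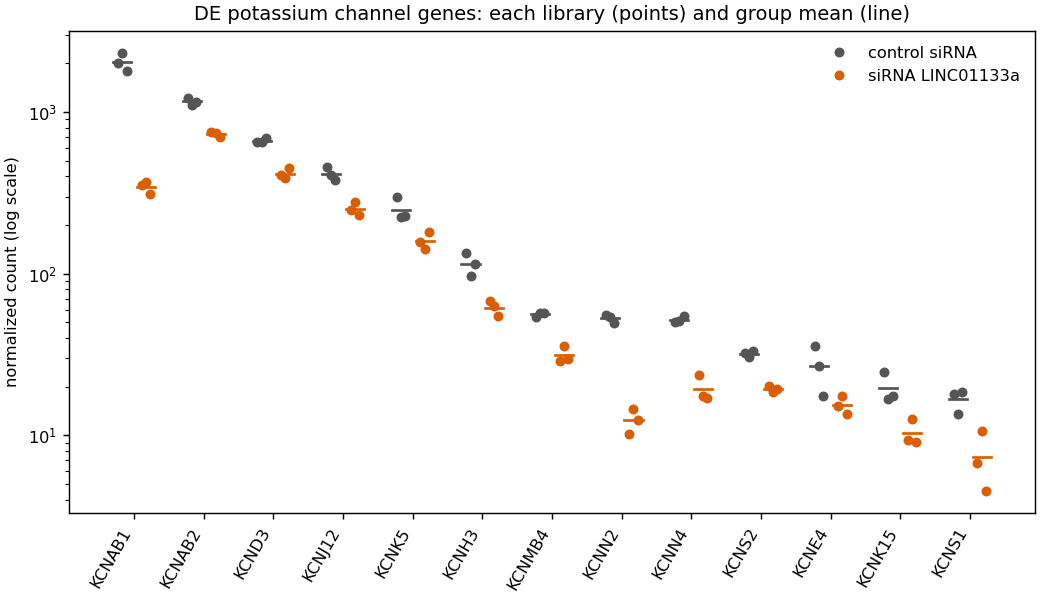
Normalized counts (log axis) of the 13 DE potassium channel genes in each of the 3 control and 3 knockdown libraries (points) with the group means (lines). The groups were farthest apart for KCNAB1 and KCNN2 and closest for KCNE4, where the lowest control value was 17.6 and the highest knockdown value 17.5.

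Summed over all 96 genes, the level of potassium channel transcripts was 184, 194 and 172 TPM in control and 116, 117 and 118 TPM in knockdown libraries. KCNAB1 alone made up 21.8% ± 1.84 of this sum in control and 5.81% ± 0.480 in knockdown cells (SD, n = 3 each). Each class was lower in every knockdown library than in every control library. The auxiliary class went from 70.4 ± 5.28 to 31.4 ± 1.56 TPM, the two-pore class from 37.5 ± 0.726 to 28.1 ± 0.633 TPM and the voltage-gated class from 39.1 ± 3.62 to 31.8 ± 0.786 TPM. The calcium- and sodium-activated class went from 22.7 ± 1.03 to 16.6 ± 0.156 TPM and the inward rectifiers from 13.6 ± 0.747 to 8.70 ± 0.639 TPM (SD, n = 3 each). Such sums are led by a few abundant genes. No test was made between classes.

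An siRNA can also lower transcripts that match its seed, the bases 2 to 8 of its guide strand. The annotated 3′ UTRs of the tested potassium channel genes were therefore searched for such matches. The guide strand of siRNA LINC01133a, the seed matches in the 2 DE genes that hold one, and the single 8-base match among the tested members are shown. They state how far these 3′ UTR sites resemble the intended target. The guide is RNA, the others are DNA letters of the transcript in GRCh38, each as the 19 bases that face the guide. Capitals mark the seed in the guide and the bases that match it in the others, including the A that faces position 1 where present.
siRNA LINC01133a guide: uCCAUUCUcagguaacuuc
LINC01133 target: gaagttacctgAGAATGGA
KCNAB1, chr3:156537418-156537436, plus strand: gcttggccccaAGAATGGc
KCNS1, chr20:45092750-45092768, minus strand: tccaagcagagAGAATGGc
KCNT2, chr1:196226356-196226374, minus strand: aaactgaaggcAGAATGGA

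The search used the letters AGAATGG for the 7-base and AGAATGGA for the 8-base match, in the sense of the transcript only. Of the 34 tested members, 7 (20.6%) held a 7-base match, against 20.7% of the 12518 tested genes with an annotated 3′ UTR. An 8-base match was found in 1 member, KCNT2, which was not DE, against 7.14% of these 12518 genes and 16.0% of the 855 of them that were DE and lower. Among the 13 DE members, KCNAB1 and KCNS1 held a 7-base match and none an 8-base match. The 27 members without a match had a median log2FC of -0.43, against 0.0019 for all 9929 tested genes without one. Of these 27, 11 (40.7%) were DE and lower, against 5.85%. All tested genes with an 8-base match had a median of -0.13, and 15.3% were DE and lower. For those with a 7-base match alone the values were -0.052 and 8.08%. The 6 members with a 7-base match alone had a median of -0.35, and 2 were DE and lower. At the KCNAB1 site, pairing from position 2 of the guide runs over 7 bases, and 10 of the 19 bases are identical to the target. The site thus lacks the full pairing of LINC01133. Over the whole transcripts of the tested members, the longest run shared with the target was 7 to 10 bases. It was 9 bases in KCNAB1, 8 in KCNS1 and 10 in KCND3. The part of these matches in the change of KCNAB1 or KCNS1 was not tested.

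Genes that handle potassium beside the channels were counted from a list of 51, of which 28 passed the filter. Of these, 2 fell and 2 rose at the same cutoffs, against 6.43% and 5.30% of all tested genes, and the median log2FC was -0.13. ATP1B1, the beta subunit of the sodium-potassium pump, had 4405, 4551 and 4344 normalized counts in control and 2931, 2865 and 2768 in knockdown libraries, far apart. The difference, a log2FC of -0.63 ± 0.039 (SE), had an adjusted p of 3.5e-08. Scaled by library size alone, ATP1B1 was at -0.57, under the cutoff. SLC12A8, a member of the cation-chloride cotransporter family, had 3625, 3746 and 3305 normalized counts in control and 2070, 2039 and 2033 in knockdown libraries. Its log2FC was -0.80 (adjusted p = 2.8e-08), while the cotransporter genes SLC12A2 and SLC12A4 had values of -0.41 and 0.42, both under the cutoff.

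The 2 genes that rose were potassium-permeable channels outside the KCN family. HCN4 (chromosome 15 from 73319859 to 73368958), the hyperpolarization-activated channel of pacemaker cells, had 235, 276 and 208 normalized counts in control and 548, 509 and 456 in knockdown libraries. Every knockdown library exceeded every control library, and the log2FC was 1.08 ± 0.10 (SE) at an adjusted p of 1.8e-06. TMEM175, a potassium and proton channel of lysosomes, had 228, 207 and 203 normalized counts in control and 359, 329 and 330 in knockdown libraries, a log2FC of 0.67 ± 0.085 (SE) at an adjusted p of 2.6e-05. HCN2 had a log2FC of -0.55 (adjusted p = 0.0028), under the cutoff and opposite in sign to HCN4. Of 11 tested regulators, among them the calmodulin genes, which provide the calcium sensor of KCNN2 and KCNN4, none was DE. At an adjusted p under 0.05 alone, 6 of the 11 were lower and 2 higher, against 25.0% and 23.3% of all tested genes. Their values ran from -0.33 for NEDD4 to 0.36 for OXSR1, all under the fold change cutoff.

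**Figure D5:**
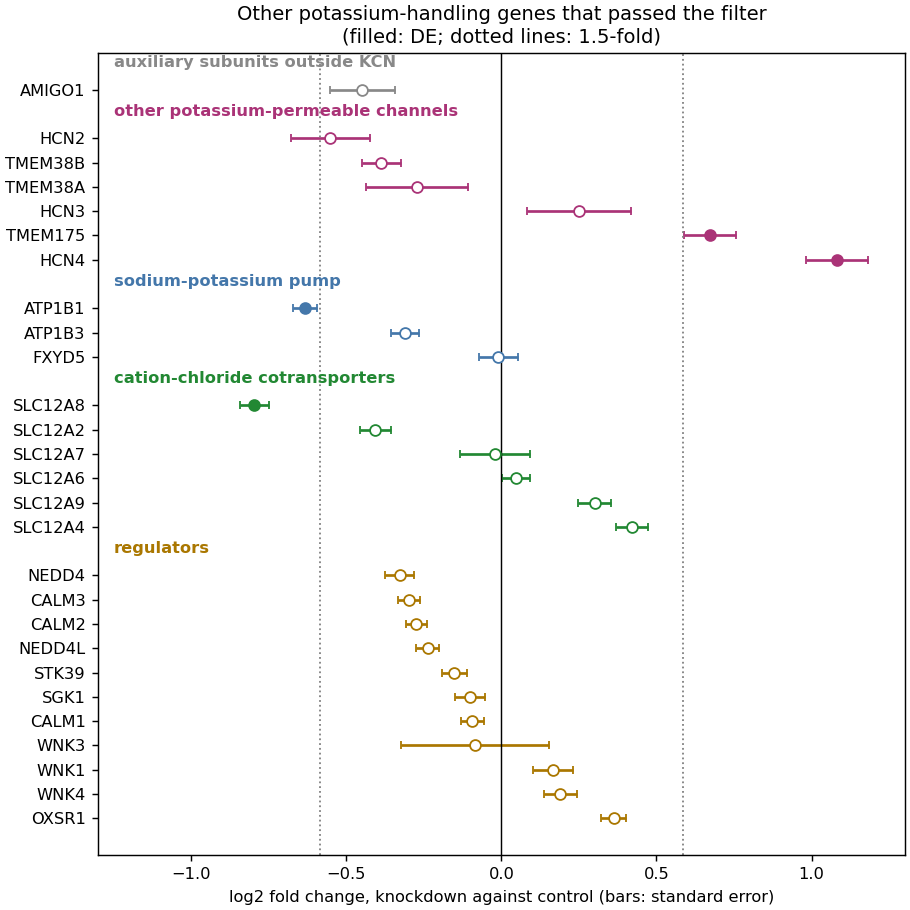
Log2 fold change (knockdown against control, x axis, bars give the standard error) of 27 of the 28 tested genes of potassium handling outside the KCN family, by group. Filled points were DE and dotted lines mark a fold change of 1.5. HCN4 and TMEM175 lie to the right of the cutoff, at 1.08 and 0.67, and SLC12A8 and ATP1B1 to the left, at -0.80 and -0.63.

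Several potassium channel genes share their locus with a gene on the opposite strand. The counts used are those of 1 strand, which held 94.0% of all stranded counts. KCNS2 overlaps STK3, which had 1128 counts in control and 2465 in knockdown cells on average, a direction opposite to that of KCNS2. KCND3 overlaps DDX20, KCNH3 overlaps MCRS1 and KCNAB2 overlaps NPHP4, which changed from 1917 to 1781, from 1322 to 1549 and from 825 to 916 counts on average. KCNJ14 overlaps GRWD1 on the same strand, with 1870.3 and 1833 counts on average, so its value is uncertain as well. The antisense RNAs KCNAB1-AS1 and KCNAB1-AS2 were listed at 0 in all libraries. With the counts taken without regard to strand, 12 of the 13 genes were DE and KCNK15 did not pass the filter.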

How the data were processed

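With STAR 2.7.6a the authors placed paired reads on GRCh38.p13 (annotation GENCODE v36). They discarded reads with more than 1 placement and deposited raw counts per gene (GeneCounts of STAR), without normalization and with replicates apart. The paper names a TruSeq kit and the labels a NEB kit. Counts on the strand opposite to read 1 were used here. Reads outside genes (4.38% to 5.22%) or on more than 1 gene (3.88% to 4.23%) stayed out of library sizes. Symbols, coordinates and exon lengths came from GENCODE v44 by gene ID, which matched 60419 of 60660 genes.

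Genes were kept by filterByExpr (minimum count of 10), normalized by TMM and tested in edgeR 4.0.16 under R 4.3.3 (quasi-likelihood test). The model held condition alone and all 6 libraries, and p-values were adjusted after Benjamini and Hochberg over 15155 genes. The code was tested on simulated data. DE needed a fold change over 1.5 and an adjusted p under 0.05, as in the study. Fold changes are knockdown against control. Normalized counts are scaled to the mean effective library size, and the standard error is the log2 fold change over the square root of F. Precision rests on 3 libraries per group.

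The members, classes and lists were chosen with earlier results of these data known. Text names every DE member and DE partner gene, the 3 members of each class with the highest control TPM, the KCNAB family, members with a fold change of 1.4 to 1.5 (none), members with an 8-base seed match, and LINC01133. Others were named after their values were seen. A few genes are not reported here by name, but count in all totals. Alternatives were DESeq2 1.42.0, median-of-ratios factors, library size alone, other filters, unstranded counts, the replicate number as a block and each library left out.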

Additional observations from a re-analysis of the deposited data

How the results depend on the processing

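Of the 13 DE potassium channel genes, 8 (KCNAB1, KCNAB2, KCND3, KCNH3, KCNJ12, KCNMB4, KCNN2 and KCNN4) were DE and lower under all 13 alternatives. KCNE4, KCNK5, KCNK15, KCNS1 and KCNS2 were not DE, or did not pass the filter, under at least 1. With each library left out in turn, 10 to 14 members were DE, while 5.80% to 6.52% of all tested genes were DE and lower. DESeq2 called 9, all lower, against 5.64% of all tested genes. The replicate number as a block called 13, the same 13 genes, against 6.38%. Deviations from the group means had correlations of -0.015, 0.0049 and 0.057 between libraries of the same replicate number. Control replicates 1 and 2 correlated better with knockdown replicates 3 (0.016) and 1 (0.071) than with their own numbers. With 3 replicates per group these correlations depend on each other, so they cannot decide whether the replicates were paired. With library size alone 1 member was DE and higher, KCNIP2 (0.69), as without control replicate 2, so that this count was 0 to 1 over the libraries left out. Library size alone also moved the share of higher calls among all DE genes from 45.2% to 55.9%, and KCNQ5 to 0.00028. With libraries left out, KCNQ5 ran from -0.15 to 0.047 (above 0 without control replicate 2) and KCNAB3 from -0.25 to 0.062 (above 0 without control replicate 1, and at 0.056 without knockdown replicate 2). Without a filter, 67 members were tested and 14 were DE and lower, against 3.62% of all tested genes. KCNK7 (-1.82) was added, at 1 to 9 counts per library. KCND2 was DE without knockdown replicate 3 (-0.90). Depth limits statements on the 62 members left out, where 3 counts in a library correspond to 0.0799 to 0.108 CPM, for counting error only.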

Other observations

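Noncoding RNAs named after potassium channel genes stood outside the comparison. KCNQ1OT1, the antisense RNA of the imprinted KCNQ1 locus, had 266, 594 and 184 normalized counts in control and 206, 157 and 178 in knockdown libraries, which overlap, and control replicate 2 was far above the others. The difference was -0.92 ± 0.32 (SE) on the log2 scale at an adjusted p of 0.028 (edgeR), while KCNQ1 itself had at most 4 counts in a library. KCNC4-DT, a transcript that starts beside KCNC4 in the other direction, had 57.7, 47.3 and 40.4 normalized counts in control and 36.4, 29.1 and 27.2 in knockdown libraries. The groups did not overlap, and the difference was -0.64 ± 0.21 (SE) on the log2 scale at an adjusted p of 0.021 (edgeR), against -0.27 for KCNC4. KCNJ5-AS1 differed by -0.40 on the log2 scale (adjusted p = 0.048, edgeR), while its sense partner KCNJ5 had a single count in 1 library.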
